A study of Mus musculus with 9 samples.

Results

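Polyamine synthesis and breakdown was followed through 10 genes, taken by symbol from the deposited gene table: Arg2, Odc1, Amd1, Srm and Sms on the synthesis side, Oaz1 and Azin1 as regulators of the first enzyme, and Sat1, Smox and Paox on the breakdown side. All 10 were found among the 28998 genes of the table. Of these genes, 11798 had a mean of at least 1 FPKM (fragments scaled to transcript length and to library depth) over the libraries and were tested, and 9 of the 10 were among them. Arg2 was below that level. The libraries came from macrophages grown out of bone marrow of wild-type C57 mice, with GM-CSF, a growth factor for this lineage, for 7 days. There were 3 groups of 3 libraries. Control cells received no drug that the labels name, JHU083 cells were treated with JHU083 for 36 h, and WGFT17 cells with WGFT17 for 36 h. Cells convert JHU083 to DON, which inhibits enzymes that consume glutamine; WGFT17 is a code name, and no target of it was used here. The labels give no dose, no time or vehicle for Control, and no word on whether the libraries of a group came from separate mice or cultures, so p-values measure the spread between libraries, which may be technical.

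Polyamines (putrescine, spermidine and spermine) are small positively charged molecules that bind RNA and DNA and are needed for growth. Ornithine decarboxylase turns ornithine, made from arginine by arginase, into putrescine, and spermidine and spermine synthase then add aminopropyl groups donated by decarboxylated S-adenosylmethionine. Acetylation and oxidation run the path backwards, and antizyme, whose own translation rises with polyamines, sends ornithine decarboxylase to the proteasome. In macrophages the split of arginine between arginase and nitric oxide synthase is a classic mark of activation state.

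The total of estimated counts ran from 56624220 to 69112134 per library. Macrophage markers were present throughout, with a summed level of 17300 to 18700 CPM (counts scaled to a common library total) in Control, 18300 to 19500 in JHU083 and 17300 to 19200 in WGFT17 for the list of 8. Single macrophage markers went both ways. In every WGFT17 library 3 of the 8 lay below Control and 3 above it. With JHU083, 1 lay below and 2 above. Markers of other cells were also present. The 8 stromal markers, such as Col1a1 and Dcn, summed to 12700 to 13500 CPM in Control, 8310 to 9500 in JHU083 and 2280 to 2390 in WGFT17, and all 8 were below Control in every WGFT17 library. The 10 liver markers summed to 1130 to 1260 CPM in Control, 167 to 634 in JHU083 and 227 to 525 in WGFT17. In JHU083 these sums were 365, 167 and 634 for replicates 1, 2 and 3. The 8 neutrophil markers summed to 27.3 to 33.3 CPM in Control, 6.69 to 8.55 in JHU083 and 0.813 to 1.65 in WGFT17. Ly6g was at 0 in all Control and WGFT17 libraries, Elane and Ltf in all WGFT17 libraries and Retnlg in all JHU083 libraries. The 10 heart muscle markers summed to 245 to 292 CPM in Control, 0.51 to 312 in JHU083 and at most 0.437 in WGFT17, and the 8 photoreceptor markers to 36.6 to 44.8, 5.5 to 40.9 and 3.73 to 4.44; in JHU083 replicate 3 held the highest sum of both lists. In bulk RNA, fewer cells of a type and less RNA per cell cannot be told apart, and the part of these cells in the changes below was not tested. JHU083 replicate 3 stood apart from the other JHU083 libraries: its counts differed from theirs with a chi-square per degree of freedom of 19.8 and 19.4, against 3.84 to 7.89 for every other pair within a group.

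In WGFT17 cells the genes of the pathway moved in both directions within each role. Odc1, Amd1, Azin1 and Smox rose against Control, and Srm, Oaz1, Sat1 and Paox fell, so that 8 of the 9 tested genes passed the test (edgeR quasi-likelihood, Benjamini-Hochberg adjusted p under 0.05). The same threshold was passed by 58.0% of all tested genes in that comparison, 28.0% as higher and 30.0% as lower. In JHU083 cells 4 of 9 passed, with Odc1, Srm and Oaz1 lower and Azin1 higher, where 24.0% of all tested genes did, 11.5% as higher and 12.5% as lower. Without JHU083 replicate 3, 5 passed, with Amd1 (lower) and Smox (higher) added and Azin1 lost, and the share of all tested genes that passed was 31.6%. Between the drugs 7 of 9 passed, against 44.7% of all tested genes, 20.4% higher and 24.4% lower in WGFT17: Odc1, Amd1, Azin1 and Smox were higher with WGFT17, and Oaz1, Sat1 and Paox lower. The sizes were moderate. The median absolute log2 change of the 9 genes was 0.15 in JHU083 against Control, where that of all tested genes was 0.16, then 0.45 against 0.30 in WGFT17 against Control, and 0.39 against 0.23 between the drugs.

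**Figure D1:**
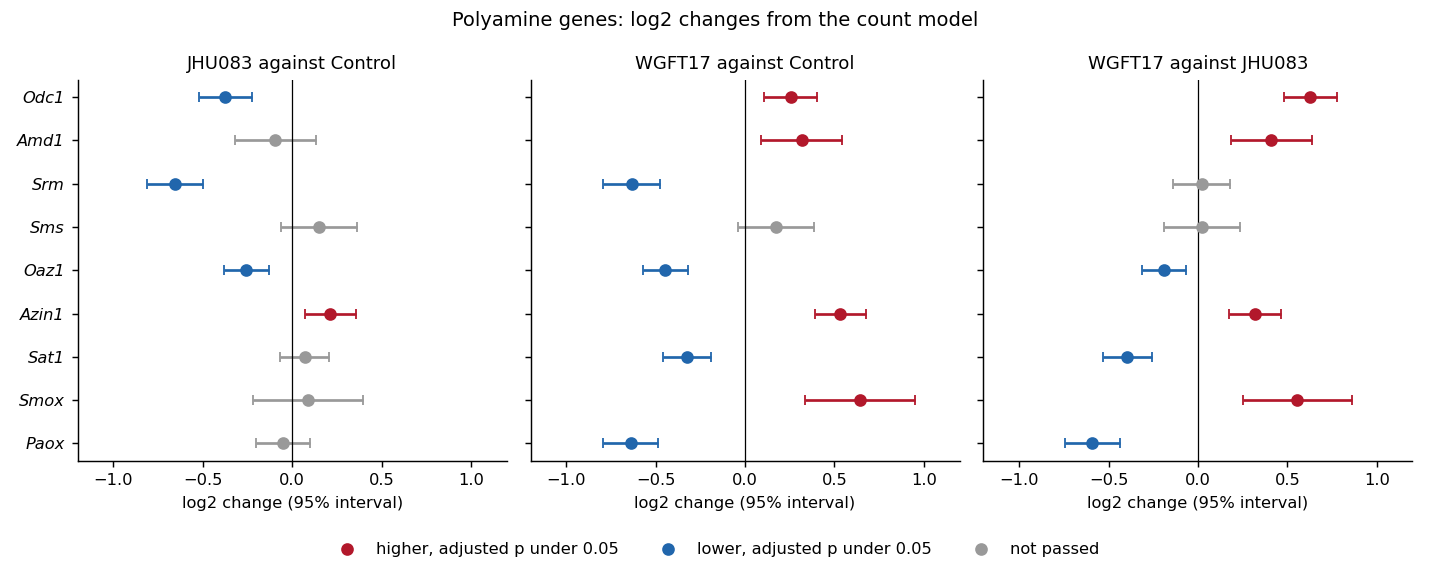
Log2 changes of the 9 tested polyamine genes in the 3 comparisons, with 95% intervals from the count model. Red points passed the test upwards, blue points downwards and grey points did not pass. Odc1 lies left of 0 with JHU083 and right of it with WGFT17, and Srm lies left of 0 with both.

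Levels per transcript length set the order of the pathway in Control cells. Oaz1 was the most abundant at 90.9 ± 0.756 FPKM (SD, n = 3), followed by Sat1 at 74.7 ± 3.75, Odc1 at 34.9 ± 0.770, Srm at 31.1 ± 0.820, Azin1 at 23.7 ± 0.630 and Amd1 at 15.1 ± 0.708. Smox at 7.92 ± 0.221 and Paox at 7.11 ± 0.604 had overlapping ranges and could not be ordered, and Sms at 3.21 ± 0.127 and Arg2 at 0.447 ± 0.117 closed the row. The place of Sms rests on an implied length of 6566 bases. It also leaves out the counts placed on Sms-ps, a copy of Sms treated below, so its rank is uncertain. With JHU083, Sat1 (83.6 ± 6.33 FPKM) and Oaz1 (81.3 ± 5.50) overlapped at the top, and so did Azin1 (29.3 ± 2.73) and Odc1 (28.7 ± 2.58). With WGFT17, Azin1 (36.9 ± 0.688) stood above Srm (21.6 ± 1.94), which overlapped Amd1 (20.3 ± 1.32), and Smox (13.3 ± 1.08) stood clear of Paox (4.91 ± 0.155).

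**Figure D2:**
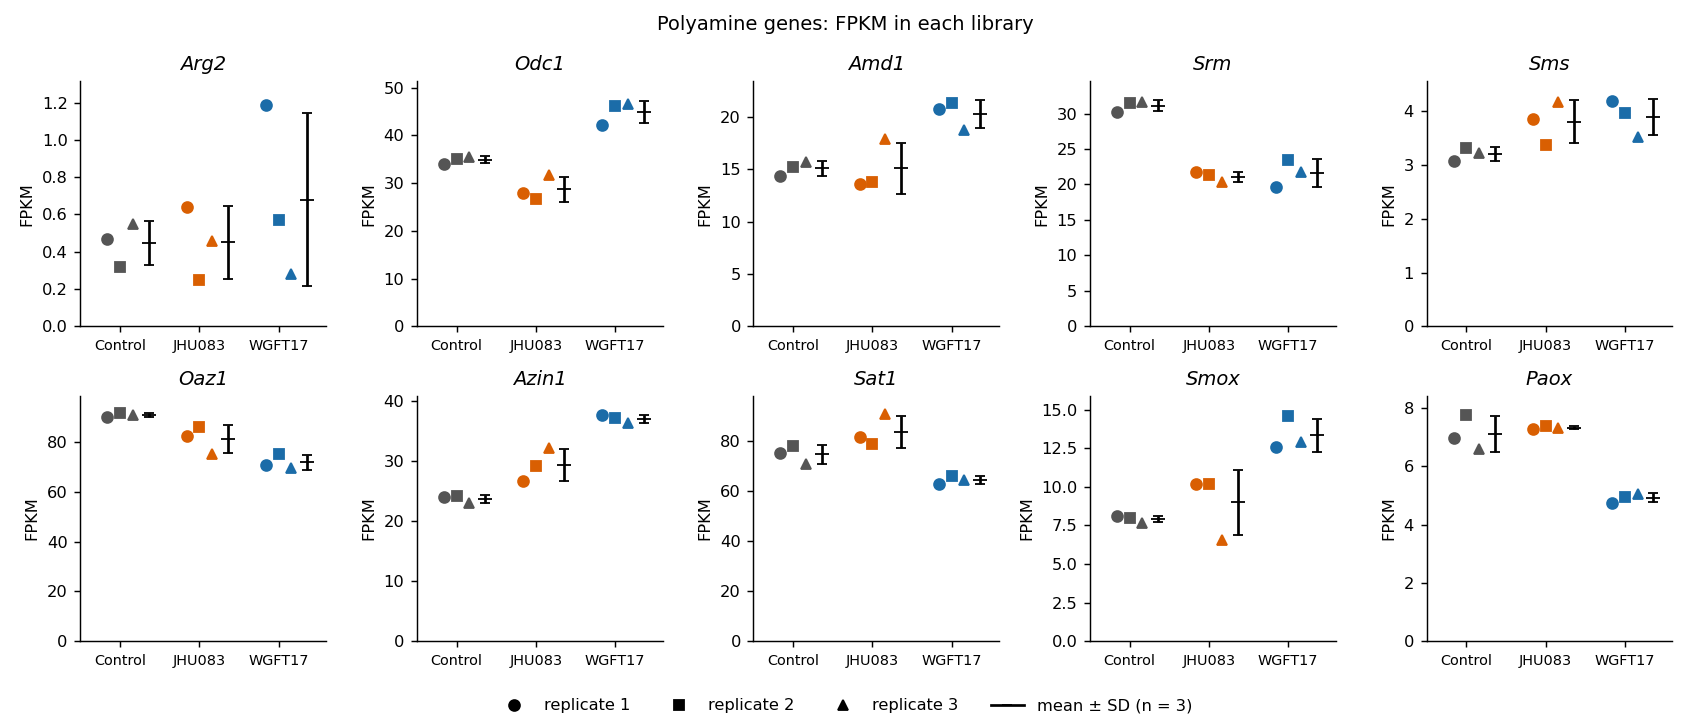
FPKM of the 10 polyamine genes in each library, with circles, squares and triangles for replicates 1, 2 and 3, and the mean ± SD (n = 3) in black beside each group. Axes start at 0 and differ between genes. WGFT17 libraries lie apart from Control for all genes but Arg2, and JHU083 replicate 3 lies away from the other JHU083 libraries for Amd1 and Smox.

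Arg2 messenger RNA was low in every library. Arg2 (chr12:79130777-79156301, GRCm38, plus strand), the mitochondrial arginase, had 0.47, 0.32 and 0.55 FPKM in Control, 0.64, 0.25 and 0.46 with JHU083, and 1.19, 0.57 and 0.28 with WGFT17. The groups overlapped, and the WGFT17 values spread most. In a fit with no minimum level its log2 change was -0.09 ± 0.53 (SE) with JHU083 (adjusted p = 1.0) and 0.53 ± 0.53 with WGFT17 (adjusted p = 0.504), intervals of -1.28 to 1.10 and of -0.65 to 1.71.

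Odc1 (chr12:17544794-17551084, plus strand), which encodes ornithine decarboxylase, the entry enzyme of the pathway, moved in opposite directions with the drugs. It had 34.0, 35.0 and 35.6 FPKM in Control, 28.0, 26.6 and 31.6 with JHU083, and 42.1, 46.0 and 46.5 with WGFT17. Every JHU083 library lay below Control and every WGFT17 library above it, with no overlap between any groups. The log2 change was -0.37 ± 0.07 (SE) with JHU083, 0.772 times the Control level (adjusted p = 0.00394), and 0.26 ± 0.07 with WGFT17, 1.19 times that level (adjusted p = 0.00734). Between the drugs Odc1 was 1.55-fold higher with WGFT17 (log2 0.63 ± 0.07, adjusted p = 1.72e-05). These calls held in all 18 alternative analyses, and without JHU083 replicate 3 the fall with JHU083 was -0.45.

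Amd1 (chr10:40287458-40302186, minus strand) encodes S-adenosylmethionine decarboxylase, which makes the aminopropyl donor. Its messenger RNA carries a short upstream reading frame of 6 codons whose translation is known to hold back the enzyme when polyamines are plentiful. That frame, shown because it marks the layer of control that RNA levels do not measure, lies at chr10:40302155-40302175 (GRCm38, minus strand; capitals are the frame with its stop codon).
Amd1 upstream reading frame: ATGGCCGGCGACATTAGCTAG
Amd1 had 14.4, 15.2 and 15.8 FPKM in Control, 13.6, 13.8 and 17.9 with JHU083, and 20.8, 21.4 and 18.8 with WGFT17. All WGFT17 libraries were above all others. JHU083 replicates 1 and 2 lay below Control while replicate 3 lay above it. Amd1 rose 1.25-fold with WGFT17 (log2 0.32 ± 0.10, adjusted p = 0.0206), a call that was lost without Control replicate 1, Control replicate 2, WGFT17 replicate 1 or WGFT17 replicate 2, at log2 changes of 0.28, 0.32, 0.30 and 0.28. It was 1.33-fold higher with WGFT17 than with JHU083 (adjusted p = 0.00693). With JHU083 it did not pass (log2 -0.09 ± 0.10, adjusted p = 0.534), but without JHU083 replicate 3 it was lower than Control (log2 -0.24, adjusted p = 0.0181).

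Srm (chr4:148591503-148594619, plus strand), spermidine synthase, fell by a similar amount with each drug. It had 30.2, 31.5 and 31.7 FPKM in Control, 21.7, 21.3 and 20.3 with JHU083, and 19.6, 23.5 and 21.7 with WGFT17. Treated and Control libraries did not overlap, and the drug groups overlapped each other. Srm was at 0.635 times the Control level with JHU083 (log2 -0.66 ± 0.07, adjusted p = 0.000488) and at 0.644 times with WGFT17 (log2 -0.63 ± 0.07, adjusted p = 1.93e-05). The comparisons share the Control libraries. The direct difference between the drugs was 0.02 on the log2 scale, with an interval of -0.14 to 0.18 and an adjusted p of 0.840, which leaves room for a difference of that size. Across all tested genes the log2 change with JHU083 had a Spearman correlation of 0.37 with the length that the counts and FPKM imply, a description over genes. By that length Srm is the shortest tested gene of the set, at 1756 bases. With each library's trend on length removed, Srm was still lower with JHU083 (log2 -0.53, adjusted p = 0.000898) and with WGFT17 (log2 -0.50, adjusted p = 7.1e-05).

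Sms (chrX:157443855-157492287, minus strand), spermine synthase, had the lowest deposited FPKM of the tested members and did not pass in any comparison by edgeR. It had 3.07, 3.32 and 3.23 FPKM in Control, 3.86, 3.38 and 4.17 with JHU083, and 4.19, 3.97 and 3.52 with WGFT17. Both drug groups lay above Control in FPKM. The count model gave log2 0.15 ± 0.10 with JHU083 (adjusted p = 0.280) and 0.17 ± 0.10 with WGFT17 (adjusted p = 0.148). In both limma fits of log2 FPKM it passed as higher with WGFT17 (log2 0.22 and 0.27, adjusted p = 0.0337 and 0.0323). Reads that lie within the Sms coding sequence cannot be placed with certainty. Sms-ps, a processed pseudogene on the same chromosome, is 100% identical to Sms over 1101 bases, the whole coding sequence. The Sms transcript compared has 3717 bases, and the rest of it lies outside the identical stretch. The first 90 bases of the copy, the same letters as the start of the Sms coding sequence, show what the counting had to tell apart (chrX:62776596-62776685, GRCm38, minus strand; the start codon is in capitals).
Sms-ps and Sms: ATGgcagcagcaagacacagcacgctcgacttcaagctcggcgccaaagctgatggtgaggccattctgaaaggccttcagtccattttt
The table places 33.4%, 23.9% and 25.6% of the summed counts of Sms and Sms-ps on the copy in Control, 19.7%, 20.6% and 23.1% with JHU083, and 22%, 22.9% and 25.8% with WGFT17. With the copy's counts added, the log2 change of Sms was 0.03 with JHU083 (adjusted p = 0.856) and 0.09 with WGFT17 (adjusted p = 0.420).

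Near-identical copies also shared counts with other members. Gm19680, a processed pseudogene 99.93% identical to Paox over 1358 bases, held 9.89% to 19.9% of their sum, Amd2, a protein-coding copy of Amd1 at 99.56% over 3202 bases, held 9.16% to 11.5%, and Oaz1-ps held 2.42% to 4.4%. Amd-ps3 and Amd-ps4 held at most 4.34% and 1.4% of the sum with Amd1. Adding these counts changed no call of the 9 genes in any comparison; Paox with WGFT17 then had a log2 change of -0.70 (adjusted p = 3.5e-06) and Amd1 one of 0.29 (adjusted p = 0.0349).

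**Figure D3:**
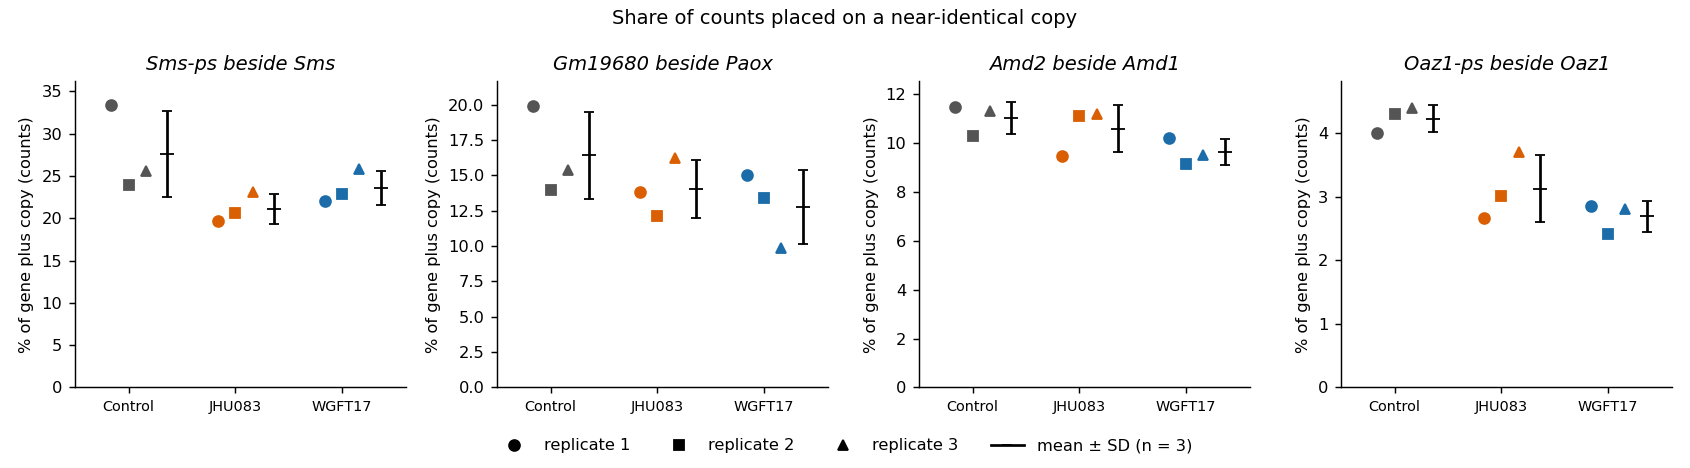
Share of the estimated counts that the table places on a near-identical copy, in percent of gene plus copy, for 4 pairs in each library (symbols are replicates, black marks the mean ± SD, n = 3). Sms-ps takes 19.7% to 33.4% and Oaz1-ps 2.42% to 4.4%.

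Oaz1 and Azin1, which act on ornithine decarboxylase in opposite ways, moved apart. Oaz1 (chr10:80826656-80829290, plus strand) encodes antizyme 1, made only when ribosomes shift frame at a stop codon, a step that polyamines favour. The site is shown with its flanks because this step is not read by messenger RNA levels. The pseudogene Oaz1-ps carries all 54 bases unchanged, so these bases alone do not tell it from Oaz1. Over 685 aligned bases Oaz1-ps is 99.27% identical to Oaz1. The relative Oaz2 matches at 44 of the 54. Oaz1 is shown at chr10:80828268-80828321 and Oaz2 at chr9:65686245-65686298, both on the plus strand. Capitals are the codon before the stop and the stop codon.
Oaz1: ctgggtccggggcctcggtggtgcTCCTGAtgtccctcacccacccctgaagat
Oaz2: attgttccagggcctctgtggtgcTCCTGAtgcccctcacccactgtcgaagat
Oaz1 had 90.1, 91.7 and 91.0 FPKM in Control, 82.6, 86.1 and 75.3 with JHU083, and 70.8, 75.4 and 69.8 with WGFT17. Both drug groups lay below Control and overlapped each other. Oaz1 was at 0.838 times the Control level with JHU083 (log2 -0.26 ± 0.06, adjusted p = 0.00916) and at 0.734 times with WGFT17 (log2 -0.45 ± 0.06, adjusted p = 4.69e-05). The JHU083 call ended in both limma fits of log2 FPKM, where the log2 change was smaller, with -0.16 as the smallest over the alternatives. Between the drugs it was lower with WGFT17 (log2 -0.19 ± 0.06, adjusted p = 0.0172), a call that ended without JHU083 replicate 2, WGFT17 replicate 1 or WGFT17 replicate 3 and with no minimum FPKM, at log2 changes of -0.15, -0.18, -0.16 and -0.16.

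Azin1 (chr15:38487427-38519266, minus strand) encodes antizyme inhibitor 1, which resembles ornithine decarboxylase, has no enzyme activity and takes antizyme away from it. It had 24.0, 24.1 and 22.9 FPKM in Control, 26.6, 29.1 and 32.1 with JHU083, and 37.6, 37.0 and 36.2 with WGFT17. The 3 groups did not overlap, with WGFT17 highest. It rose 1.45-fold with WGFT17 (log2 0.53 ± 0.07, adjusted p = 3.69e-05) and was 1.25-fold higher there than with JHU083 (log2 0.32 ± 0.07, adjusted p = 0.00198), and both calls held in all 18 alternatives. The rise with JHU083 was 1.16-fold (log2 0.21 ± 0.07, adjusted p = 0.0361), and this call ended in 9 of 18 alternatives. The log2 change was smaller without JHU083 replicate 3 (0.14, adjusted p = 0.0508) and with the length trend removed (0.14, adjusted p = 0.151). In the other 7, which include those without any 1 of the Control libraries or without JHU083 replicate 2, it stayed between 0.20 and 0.22. By the length that the counts and FPKM imply, Azin1 is the longest of the set at 6813 bases.

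Sat1, Smox and Paox return spermine and spermidine to putrescine. Sat1 (chrX:155213132-155216449, minus strand) encodes the acetyltransferase that tags them for oxidation and export. It had 75.3, 78.0 and 70.6 FPKM in Control, 81.4, 78.7 and 90.8 with JHU083, and 62.5, 65.8 and 64.5 with WGFT17. WGFT17 libraries were the lowest, with no overlap. Sat1 fell to 0.799 times the Control level with WGFT17 (log2 -0.32 ± 0.06, adjusted p = 0.000973) and was at 0.761 times the JHU083 level (log2 -0.39 ± 0.06, adjusted p = 0.000317). JHU083 libraries lay above Control in FPKM, but the count model, which scales libraries by TMM, gave log2 0.07 ± 0.06 (adjusted p = 0.437), and 0.00 without JHU083 replicate 3. On the FPKM scale the median of all tested genes was itself 0.08 higher with JHU083 and 0.10 higher with WGFT17 than in Control, in log2(FPKM + 1).

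Smox (chr2:131491496-131525922, plus strand), spermine oxidase, cuts spermine directly and releases hydrogen peroxide and an aldehyde. It had 8.09, 8.00 and 7.67 FPKM in Control, 10.2, 10.2 and 6.57 with JHU083, and 12.6, 14.6 and 12.9 with WGFT17. All WGFT17 libraries were above all others. JHU083 split, with replicates 1 and 2 above Control and replicate 3 below it. Smox rose 1.56-fold with WGFT17 (log2 0.64 ± 0.14, adjusted p = 0.00222) and was 1.47-fold higher there than with JHU083 (log2 0.56 ± 0.14, adjusted p = 0.00695). With JHU083 against Control it did not pass (log2 0.09 ± 0.14, adjusted p = 0.679), but without replicate 3 it did, as higher (log2 0.26, adjusted p = 0.0158). Paox (chr7:140115799-140137224, plus strand), the peroxisomal oxidase that takes the acetylated polyamines, had 6.96, 7.77 and 6.59 FPKM in Control, 7.28, 7.40 and 7.31 with JHU083, and 4.74, 4.96 and 5.04 with WGFT17. Only the WGFT17 libraries stood apart, below the rest. Paox fell to 0.642 times the Control level with WGFT17 (log2 -0.64 ± 0.07, adjusted p = 1.37e-05) and did not pass with JHU083 (log2 -0.05 ± 0.07, adjusted p = 0.633, interval -0.20 to 0.10). Between the drugs it was at 0.664 times the JHU083 level (log2 -0.59 ± 0.07, adjusted p = 3.33e-05).

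Promoter sequences from RefSeq (GRCm38.p6) were held for 7 of the 10 genes, as 9 entries. The 250 bases before each RefSeq start site were searched on both strands. These start sites can differ from the gene starts given above. The windows of Smox, of Paox and of an Sms entry (chrX:157491369-157491618) lie inside the gene coordinates given above, and the Odc1 window crosses the gene start. Srm, Azin1 and Arg2 are without an entry. The E-box CACGTG, bound by MYC, was in 1 of 9 (an Sms entry) against 6.02% of all 32851 promoters, and TGATGNAA, the C/EBP-ATF element, was in 0 of 9 against 3.45%. TGACNNNGC, the core of the antioxidant response element, was in 2 of 9 against 10.2%. The entries with that core belong to Smox and to Oaz1, and are printed as the members that hold it, as TGACAGTGC in Smox and TGACGACGC in Oaz1 (chr2:131491612-131491861 and chr10:80826406-80826655, both plus strand; capitals are the match, at -193 to -185 and at -13 to -5 from the start site).
Smox promoter: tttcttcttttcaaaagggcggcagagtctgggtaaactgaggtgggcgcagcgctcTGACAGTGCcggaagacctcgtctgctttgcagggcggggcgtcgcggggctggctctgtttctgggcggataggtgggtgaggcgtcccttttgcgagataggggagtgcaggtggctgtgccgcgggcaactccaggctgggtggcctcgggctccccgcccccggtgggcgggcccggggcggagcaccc
Oaz1 promoter: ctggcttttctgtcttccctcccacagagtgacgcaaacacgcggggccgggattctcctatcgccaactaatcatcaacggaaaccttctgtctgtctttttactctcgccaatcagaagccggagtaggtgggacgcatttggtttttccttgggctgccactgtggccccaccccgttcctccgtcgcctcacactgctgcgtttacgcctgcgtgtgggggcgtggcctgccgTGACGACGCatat
A match is a run of letters and not a measured binding site, and nothing about the factor follows from it.

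Ratios within a library do not depend on how libraries were scaled, so pairs of genes of the pathway were set against each other in FPKM. Azin1 to Oaz1 was 0.266, 0.263 and 0.252 in Control, 0.323, 0.339 and 0.426 with JHU083, and 0.531, 0.491 and 0.519 with WGFT17, so the messenger RNA ratio of antizyme inhibitor to antizyme was higher in both drug groups, with no overlap between the 3. A ratio does keep any trend of the changes on length. The implied lengths are 6813 bases for Azin1 and 2803 for Oaz1. With the length trend removed, Azin1 did not pass with JHU083 by edgeR (log2 0.14, adjusted p = 0.151). Odc1 to Sat1, the entry enzyme against the acetyltransferase, was 0.452, 0.449 and 0.503 in Control, 0.343, 0.338 and 0.348 with JHU083, and 0.674, 0.700 and 0.721 with WGFT17. Here the drug groups lay on opposite sides of Control. Odc1 to Oaz1 was 0.378, 0.382 and 0.391 in Control and 0.595, 0.611 and 0.667 with WGFT17, while JHU083 at 0.339, 0.309 and 0.420 spanned the Control values. Smox and Paox are both oxidases of the breakdown side. Their ratio, Smox to Paox, was 1.16, 1.03 and 1.16 in Control, 1.40, 1.38 and 0.899 with JHU083, and 2.65, 2.94 and 2.56 with WGFT17. Amd1 to Srm, not drawn, was 0.476, 0.484 and 0.498 in Control, 0.626, 0.648 and 0.883 with JHU083, and 1.06, 0.908 and 0.868 with WGFT17. Its values overlapped between the drug groups. The pairs were picked by role, and no share over other pairs of genes was computed. The ratios are given as a description, and no test was run on them. In FPKM itself, the groups did not overlap for 6 of the 9 tested genes in JHU083 against Control, where 43.7% of all tested genes did the same, for 9 of 9 in WGFT17 against Control, where 73.2% did, and for 6 of 9 between the drugs, where 53.4% did.

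**Figure D4:**
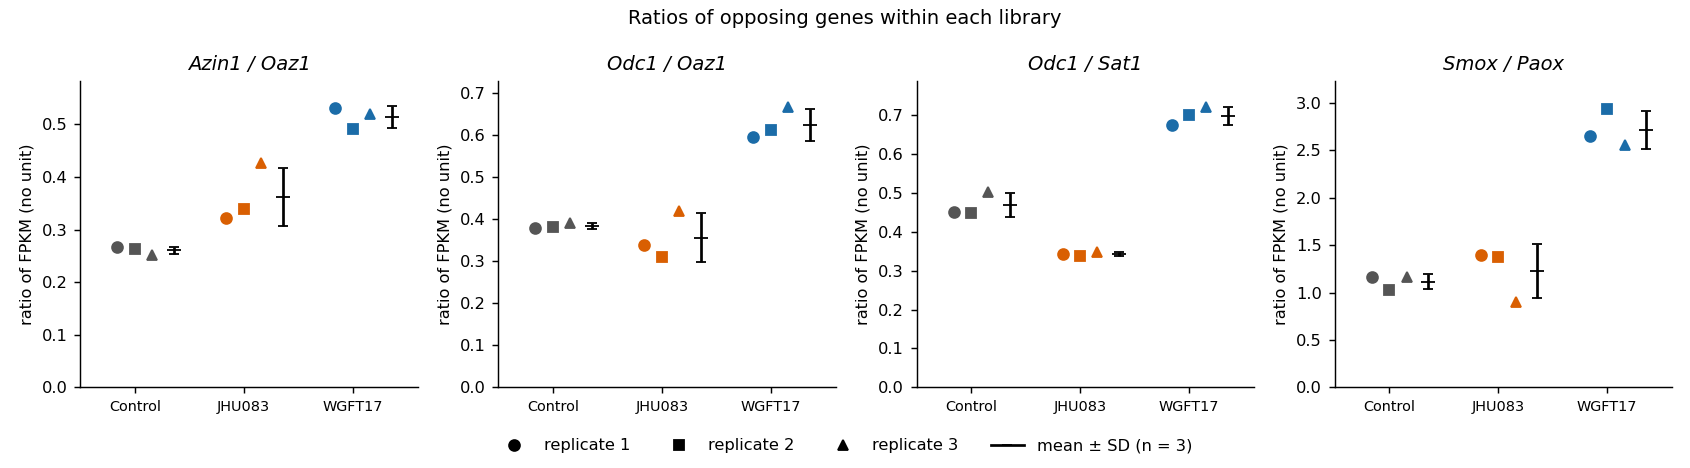
Ratios of FPKM between pairs of polyamine genes in each library (symbols are replicates, black marks the mean ± SD, n = 3). Axes start at 0. Smox and Paox are both on the breakdown side. Azin1 / Oaz1 and Smox / Paox are highest in the WGFT17 libraries, and Odc1 / Sat1 lies below Control with JHU083 and above it with WGFT17.

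Around these genes, 53 others of the pathway were listed by role, of which 51 were in the table and 38 were tested. With JHU083, 10 of the 38 passed by edgeR, 0 higher and 10 lower, where 11.5% of all tested genes were called higher and 12.5% lower. At an unadjusted p under 0.05 there were 2 higher and 12 lower, and DESeq2 called 0 higher and 11 lower. Among calls over all genes the share that was higher moved from 47.7% with TMM to 58.7% with library totals alone and 71.6% with limma on log2(FPKM + 1), and with the last 2 of these, and with a minimum of 5 FPKM, Mat2a was called higher with JHU083. With WGFT17, 19 of 38 passed, 8 higher and 11 lower. Between the drugs 20 of 38 passed, 12 higher and 8 lower in WGFT17. The shares called lie near those of all tested genes, 24.0%, 58.0% and 44.7%.

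Among the 10 tested genes of ornithine and arginine metabolism, 4 were lower with JHU083, where 12.5% of all tested genes were. With WGFT17, 1 was higher and 3 were lower, where 28.0% and 30.0% of all tested genes were. Arg1, the cytosolic arginase, had 4.95, 4.25 and 3.71 FPKM in Control, 2.55, 1.54 and 2.14 with JHU083, and 3.76, 3.08 and 1.83 with WGFT17. It fell with JHU083 (log2 -1.15 ± 0.26, adjusted p = 0.00979). Its fall with WGFT17 (log2 -0.68 ± 0.25, adjusted p = 0.0365) lost the threshold without Control replicate 1 (-0.57), Control replicate 2 (-0.70), WGFT17 replicate 2 (-0.73) or WGFT17 replicate 3 (-0.44), in limma, with the length trend removed and with no minimum FPKM. Nos2, a nitric oxide synthase, was below the level for testing. It had 1.09, 1.04 and 0.87 FPKM in Control, 0.44, 0.5 and 1.17 with JHU083, and 0.65, 0.45 and 0.24 with WGFT17. Oat, ornithine aminotransferase, which takes ornithine towards glutamate and proline, had 63.2, 66.8 and 63.2 FPKM in Control and 37.8, 34.9 and 36.7 with WGFT17, a fall of 0.93 on the log2 scale to 0.525 times the Control level (adjusted p = 7.42e-08). With JHU083 Oat had 71.7, 68.4 and 63.4 FPKM (log2 -0.02 ± 0.05, adjusted p = 0.815, a value whose sign changed with the scaling). Ass1, the urea cycle enzyme that rebuilds arginine from citrulline, moved in opposite directions, with 15.0, 15.9 and 17.4 FPKM in Control, 12.0, 10.3 and 11.8 with JHU083, and 27.8, 30.5 and 30.9 with WGFT17. Its log2 change was -0.59 ± 0.08 with JHU083 (adjusted p = 0.00121) and 0.78 ± 0.08 with WGFT17 (adjusted p = 8.89e-06), and between the drugs it was 2.58-fold higher with WGFT17 (adjusted p = 1.1e-07). Aldh18a1, which makes the glutamate semialdehyde that feeds proline and ornithine, fell with JHU083 (log2 -0.45 ± 0.07, adjusted p = 0.00166) and did not pass with WGFT17 (log2 0.10 ± 0.07, adjusted p = 0.206; 0.0260 in limma, as higher). Arg1, Ass1 and Oat are also liver genes, and the liver marker sums given above, lower in both drug groups, stand beside them. Ass1 was higher with WGFT17, and Oat did not pass with JHU083. The part of liver RNA in the levels of these 3 genes was not tested.

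Of 3 tested relatives of the members (Azin2, Oaz2 and Amd2), 0 passed with JHU083, by edgeR, by DESeq2 or at an unadjusted p under 0.05. By edgeR 24.0% of all tested genes passed with JHU083. With WGFT17, 2 of the 3 were lower, where 58.0% of all tested genes passed, 30.0% as lower. Azin2, a second antizyme inhibitor, fell with WGFT17 to 0.410 times the Control level (log2 -1.28 ± 0.13, adjusted p = 8.02e-06), from 3.73, 4.58 and 4.48 FPKM to 1.71, 1.83 and 2.11, opposite to Azin1. Oaz2 fell with WGFT17 as Oaz1 did (log2 -0.41 ± 0.07, adjusted p = 0.000255), and neither Azin2 nor Oaz2 passed with JHU083 (adjusted p = 0.180 and 0.154). Of the 9 tested genes of S-adenosylmethionine supply and methylthioadenosine salvage, 3 were lower with JHU083, where 12.5% of all tested genes were. With WGFT17, 2 of the 9 were higher and 3 lower, where 28.0% and 30.0% of all tested genes were. Mat2a, which makes S-adenosylmethionine, rose with WGFT17 (log2 0.36 ± 0.05, adjusted p = 4.59e-05), and Adi1, a salvage enzyme, rose with it (log2 0.24 ± 0.06, adjusted p = 0.00644). Mtap, which clears the methylthioadenosine left by spermidine and spermine synthesis, had 18.7, 18.3 and 19.7 FPKM in Control, 15.5, 15.6 and 17.7 with JHU083, and 12.7, 13.9 and 12.4 with WGFT17. It fell with WGFT17 (log2 -0.65 ± 0.07, adjusted p = 2.02e-05) and with JHU083 (log2 -0.31 ± 0.07, adjusted p = 0.0126), where the call was lost without Control replicate 3 (log2 -0.27, adjusted p = 0.0568). Mat1a, the liver form of the S-adenosylmethionine synthetase, fell with both drugs (log2 -1.03 ± 0.23 and -0.80 ± 0.23, adjusted p = 0.0104 and 0.0115), beside the lower liver marker sums. Aoc3, an amine oxidase of stromal and endothelial cells, was at 2.03, 3.31 and 1.94 FPKM in Control, 1.29, 1.24 and 1.22 with JHU083, and listed at 0, 0.01 and 0.01 with WGFT17, beside the lower stromal marker sums.

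**Figure D5:**
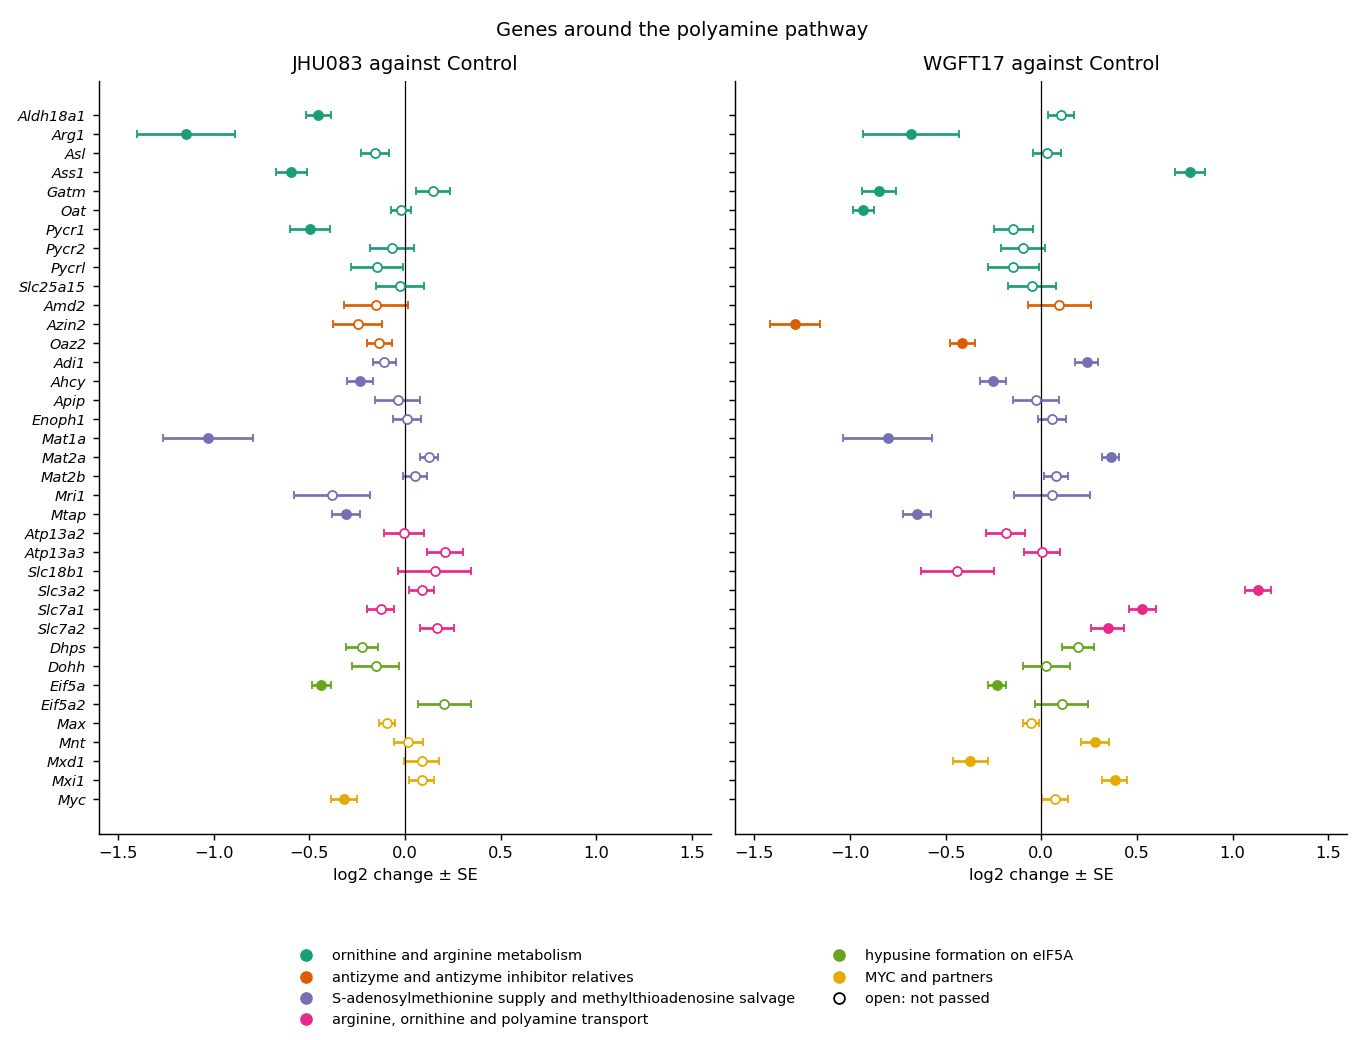
Log2 changes ± SE of the other tested genes around the polyamine pathway against Control, coloured by role; filled points passed the test and open points did not. Slc3a2 and Ass1 lie farthest right with WGFT17, Azin2 and Oat farthest left, and filled points with JHU083 all lie left of 0. Aoc3, near 0 FPKM with WGFT17, is not drawn.

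Among the 6 tested transporters of arginine, ornithine and polyamines, 3 rose with WGFT17, where 28.0% of all tested genes were called higher. Those 3 are Slc3a2, Slc7a1 and Slc7a2, which serve amino acids. Atp13a2, Atp13a3 and Slc18b1 did not pass with WGFT17 by edgeR (log2 -0.19, 0.0051 and -0.44, adjusted p = 0.1415, 0.968 and 0.0709). Slc18b1 was lower with WGFT17 than with JHU083 (log2 -0.59, adjusted p = 0.0266). JHU083 gave 0 calls by edgeR, where 24.0% of all tested genes passed, and 0 by DESeq2 (1 at an unadjusted p under 0.05). With the length trend removed, Slc7a1 was called lower with JHU083 (log2 -0.27, adjusted p = 0.0223, against -0.13 and 0.203). Slc3a2, the heavy chain shared by several amino acid exchangers, had 89.9, 91.3 and 92.5 FPKM in Control, 102, 114 and 94.0 with JHU083, and 208, 224 and 215 with WGFT17, a 2.19-fold rise (log2 1.13 ± 0.07, adjusted p = 9.67e-08). Slc7a1, the main cationic amino acid transporter of growing cells, rose 1.44-fold (adjusted p = 6.38e-05), and Slc7a2, the cationic transporter known from macrophages, rose 1.27-fold (adjusted p = 0.00581). Eif5a, whose protein carries hypusine built from spermidine, was at 180.0, 192 and 197 FPKM in Control, 148, 152 and 148 with JHU083, and 171, 173 and 178 with WGFT17. It fell with JHU083 (log2 -0.44 ± 0.05, adjusted p = 0.000552) and with WGFT17 (log2 -0.23 ± 0.05, adjusted p = 0.00192). Dhps, which begins the hypusine step, did not pass against Control with either drug (adjusted p = 0.0753 and 0.0740, though DESeq2 gave 0.0436, as lower, with JHU083, and limma 0.00673, as higher, with WGFT17) and was 1.33-fold higher with WGFT17 than with JHU083 (adjusted p = 0.00194). Myc, a known activator of Odc1, had 18.4, 18.4 and 18.6 FPKM in Control, 17.1, 15.8 and 14.4 with JHU083, and 21.2, 19.6 and 22.0 with WGFT17. It fell with JHU083 (log2 -0.32 ± 0.07, adjusted p = 0.00752), did not pass with WGFT17 (log2 0.07 ± 0.07, adjusted p = 0.382; 0.0435 in limma, as higher), and was 1.31-fold higher with WGFT17 than with JHU083 (adjusted p = 0.000613). Of the 5 tested genes of MYC and its partners, 2 were higher and 1 lower with WGFT17. Of all tested genes 58.0% passed there, 28.0% as higher and 30.0% as lower. The antagonists among the 5 went both ways. Mxi1 rose with WGFT17 (log2 0.38 ± 0.07, adjusted p = 0.000454) and Mxd1 fell (log2 -0.37 ± 0.09, adjusted p = 0.00522; 0.0518 in limma). The other that was higher is Mnt, also an antagonist, named outside the rule for named genes and after its values were seen.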

How the data were processed

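The 9 libraries were built from poly(A) RNA with strand marking and read from both ends, 150 bases each, per the labels' protocols. Per the submitters' processing notes, StringTie 2.1.6, HISAT2 2.2.1, cutadapt 1.9, edgeR and DESeq2 were used, in roles that are not given, with the build mm9. The deposited table gives an estimated count and an FPKM value per gene and library, per the file headers. The deposited estimated counts are whole numbers, used as they are, and an excess of 4 (4.04% of values above 0, against 1.37% at 5 and 2.16% at 3) is what values derived from coverage, at about 4 per read pair, would give; this was assumed in an alternative and is not stated in the sources. FPKM was also computed by the authors and deposited with 2 decimals. Coordinates equal GRCm38 (GENCODE M21) for 90.3% of 28926 identifiers and for 8 of the 10 genes, with another end for Odc1 and Srm, and are given in GRCm38 as in the table.

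Columns were grouped by sample titles. Genes with a mean of at least 1 FPKM were tested with edgeR 4.0.16 (R 4.3.3), quasi-likelihood, TMM factors, all 9 libraries in 1 fit, Benjamini-Hochberg over 11798 genes per comparison, called at an adjusted p under 0.05. The biological coefficient of variation was 0.122. The steps were tested on simulated counts. Alternatives were DESeq2 1.42.0, limma 3.58.1 on log2(FPKM + 1 or 0.1), other scalings and filters, counts divided by 4, length trends (loess, span 0.3), the replicate number as a block, 2 groups only, each library left out, and, added after seeing the data, counts of copies (BLAST 2.17.0, at least 99% identity over 600 bases) added to the gene. Named genes are the 10, then Arg1, Oat, Slc7a2, Myc and Eif5a, and the 2 called genes with the smallest adjusted p per role and comparison. Mnt, Nos2, Atp13a2, Atp13a3 and Slc18b1 were added outside this rule, after their values were seen. Genes of like pattern were to be named only for a member with a log2 change of at least 1, and there was none. The members and lists were chosen with earlier results of these data known. No count is given for protein or polyamine levels, which were not analysed here.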

Additional observations from a re-analysis of the deposited data

How the results depend on the processing

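The 9 tested polyamine genes gave 3 to 5 calls in JHU083 against Control, 7 to 9 in WGFT17 against Control and 6 to 7 between the drugs over all alternatives. The number of all genes called with JHU083 ranged from 1534 to 3731 when a library was left out, with 1534 without Control replicate 2 and 1568 without Control replicate 3, against 2831. With a minimum of 5 FPKM, where fewer genes are tested, 4151 were called with WGFT17 and 3305 between the drugs. The share of higher calls with JHU083 was 47.7% with TMM, 58.7% with library totals, 71.6% with limma at pseudocount 1, 72.3% at 0.1, and 60.9% with limma for WGFT17, where the median log2 change of all genes was 0.10 at pseudocount 1 and 0.11 at 0.1, against 0.0044 with TMM. With the replicate block 2330, 6530 and 4907 genes were called, and 3, 8 and 7 of the 9; Azin1 with JHU083 then had an adjusted p of 0.0671. Same-numbered libraries correlated between -0.03 and 0.16 in their deviations, not above 0.1 in every pair, so the numbers were not taken as pairing. Signs changed for log2 changes that had not passed. With JHU083, leaving out a library gave -0.000185 to 0.11 for Sat1, -0.0146 to 0.264 for Smox, -0.0951 to 0.0132 for Paox and -0.0598 to 0.0202 for Oat. The negative values of Smox, -0.0125 and -0.0146, came without JHU083 replicate 1 or 2, that of Sat1 without replicate 3, and the positive one of Paox without Control replicate 2. Paox was at 0.0418 and 0.0473 in limma, and Oat at 0.0725 and 0.0735 in limma, 0.0146 with library totals, 0.00294 at 5 FPKM and 0.0434 with the length trend removed. Between the drugs, leaving out a library gave -0.0478 to 0.0879 for Srm, with -0.00624 at 5 FPKM, -0.0557 to 0.099 for Sms and -0.0137 to 0.536 for Mat1a. The causes were not tested.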
